A study of Mus musculus with 8 samples.

Results

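The monoamine neuron identity genes are 10 genes that mark the neurons making dopamine, serotonin or noradrenaline, and they were taken as a named list by gene symbol, under a rule that uses no measured value. They comprised 5 genes of dopamine neurons or shared by several of these systems (Th, Ddc, Slc6a3, Slc18a2 and Maob), 3 genes of serotonin neurons (Tph2, Slc6a4 and Fev) and 2 genes of noradrenaline neurons (Dbh and Slc6a2). All 10 were found among the 22430 genes of the count table, and all 10 were among the 16730 genes that passed the filter on low counts.

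Polyadenylated RNA was sequenced from the brains of 8 male C57Bl/6JRj mice, of which 4 were 6 months old (6m) and 4 were 24 months old (24m). No engineered allele or treatment was named for either group, and age was the only labelled difference between them. The tissue is given as whole brain and also as brain hemisphere, and each library came from a separate animal. Library totals were 63460940 to 74513571 counts at 6m and 72936345 to 103462414 counts at 24m.

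Monoamine neurons sit in small nuclei of the midbrain and brainstem and send axons through much of the brain, and a further population of dopamine neurons lies in the olfactory bulb. Hydroxylases that depend on the cofactor tetrahydrobiopterin begin synthesis: Th turns tyrosine into L-DOPA, Tph2 hydroxylates tryptophan, and Ddc then decarboxylates both products to dopamine and serotonin. Slc18a2 loads the transmitter into vesicles, a plasma membrane transporter particular to each system takes it back up, and the monoamine oxidases break it down.

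Upstream sequence is shown for the enzymes of synthesis, because Th and Ddc act in the same pathway and gave different results between ages. The sequences end at the base before the start of the canonical transcript in the GENCODE annotation of assembly GRCm39 and are printed 5′ to 3′ on the strand of the gene. They cover chr7:142453752-142453781 for Th, chr11:11848151-11848250 for Ddc and chr10:115020928-115021027 for Tph2, all on the minus strand. Capitals mark matches to the motifs named in the next paragraph.
Th: gcttTGACGTCAgcctggcctttaagaggc
Ddc: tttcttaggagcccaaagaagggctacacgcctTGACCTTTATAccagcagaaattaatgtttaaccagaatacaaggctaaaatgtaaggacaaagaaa
Tph2: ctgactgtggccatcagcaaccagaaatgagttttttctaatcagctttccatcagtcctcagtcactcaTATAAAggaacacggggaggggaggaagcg

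The 250 bases upstream of each of the 10 members were searched on both strands for 4 motifs. The cyclic AMP response element TGACGTCA, which reads the same on both strands, was found in 1 member, Th, from 26 to 19 bases upstream of the start, and in 1.69% of the 21770 windows of protein-coding genes. The nuclear receptor element AAAGGTCA was found in 1 member, Ddc, on the reverse strand from 67 to 60 bases upstream, and in 1.19% of windows. The letters TATAAA were found in 2 members, in Tph2 from 30 to 25 bases upstream and in Ddc on the reverse strand from 62 to 57 bases upstream, where they overlapped the nuclear receptor element, and in 11.9% of windows. CCGGAA, the core bound by ETS factors such as Fev, was in none of the 10 windows against 12.4% of all windows. These matches describe letters only.

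Of the 10 members, 3 were called higher at 24m (Slc6a3, Slc18a2 and Slc6a2) and 3 were called lower (Th, Slc6a4 and Fev), where a call needed a log2 fold change of at least 0.58 in size together with an adjusted p no greater than 0.05 in the edgeR quasi-likelihood test, with Benjamini-Hochberg adjustment over all tested genes. Among all tested genes 25.3% were called higher and 18.3% lower, so 3 of 10 in each direction was near the share over all genes. All 4 libraries of 24m lay above all 4 of 6m for 3 members (Slc6a3, Maob and Slc6a2), against 28.4% of all genes, and below them for 2 members (Th and Dbh), against 26.8% of all genes. The members' median log2 fold change was -0.27, beside -0.00337 over all tested genes. The list as a whole moved in no single direction, and each system held genes of either sign or genes that missed the thresholds.

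**Figure D1:**
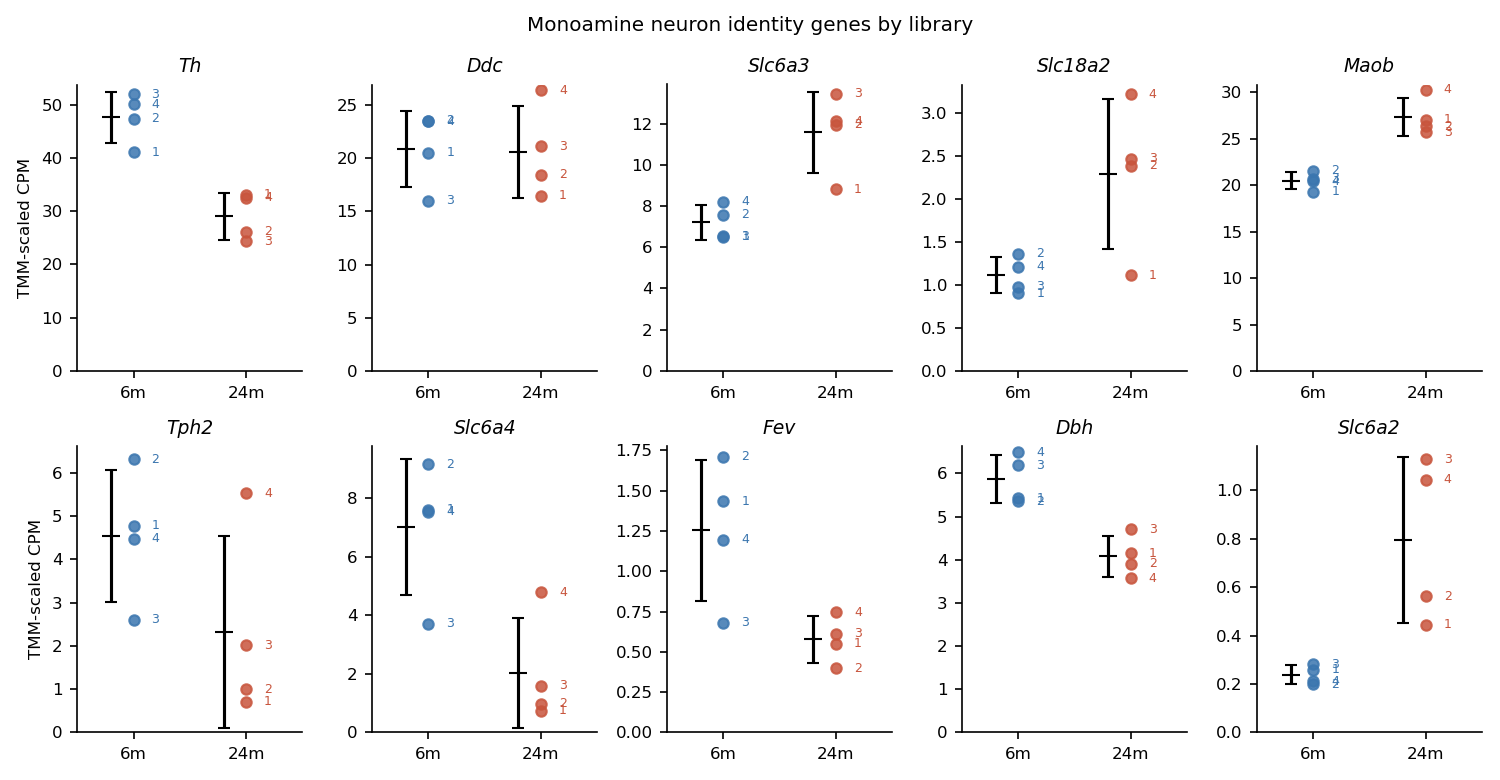
Level of each of the 10 genes in each library, in counts per 1e+06 of a library total scaled by trimmed mean of M values factors (TMM-scaled CPM), with 6m in blue, 24m in red, replicate numbers beside the points and black bars for the mean ± SD of 4 libraries. The ages do not overlap for Th, Slc6a3, Maob, Dbh and Slc6a2, and the Tph2 and Slc6a4 values of 24m replicate 4, 5.53 and 4.78 CPM, lie within the range of 6m.

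Th, the rate-limiting enzyme of dopamine and noradrenaline synthesis, fell with age. Its level was 41.0, 47.3, 52.0 and 50.1 TMM-scaled counts per 1e+06 (CPM) in the 4 libraries of 6m and 33.0, 26.2, 24.3 and 32.5 CPM in the 4 of 24m. The means were 47.6 ± 4.77 CPM at 6m and 29.0 ± 4.42 CPM at 24m (SD, n = 4 each), a log2 fold change of -0.71 ± 0.13 (SE) with an adjusted p of 0.000993. Every library of 24m was below every library of 6m. In such bulk samples, fewer cells of a type and less RNA per cell cannot be told apart. The difference stayed negative in all 24 alternative analyses, but its size dropped below the fold threshold with library totals as the only scaling (log2 fold change -0.50) and without the 3 libraries lowest in hindbrain Hox genes (-0.54).

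Ddc, the next enzyme of the same pathway and also the last step of serotonin synthesis, did not pass the test. It measured 20.5, 23.5, 16.0 and 23.5 CPM at 6m and 16.5, 18.4, 21.1 and 26.4 CPM at 24m. The log2 fold change was -0.02 ± 0.17 (SE, adjusted p = 0.931 by edgeR), and the ages overlapped over most of their range. With the length trend removed the value was -0.43 (adjusted p = 0.0249), still under the fold threshold. The highest Ddc level of all 8 libraries was in 24m replicate 4 and the lowest in 6m replicate 3. The ratio of Th to Ddc counts was 2.35 ± 0.604 at 6m and 1.45 ± 0.385 at 24m (SD, n = 4 each), and 24m replicate 1, at 2.00, lay at the lower end of the range of 6m.

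Slc6a3, the dopamine transporter of the plasma membrane, rose. Its level was 6.51, 7.57, 6.54 and 8.20 CPM at 6m and 8.82, 11.9, 13.5 and 12.1 CPM at 24m. The log2 fold change was 0.68 ± 0.15 (SE, adjusted p = 0.00303 by edgeR). The ages did not overlap, although 24m replicate 1 was close to the highest library of 6m. Th and Slc6a3, both made by midbrain dopamine neurons, therefore went in opposite directions in these whole-brain counts. Th is also made by dopamine neurons of the olfactory bulb and by noradrenaline neurons. Within ages, the r with the summary of olfactory bulb genes was 0.73 for Th and 0.10 for Slc6a3. Whether the genes diverged within midbrain neurons was not tested. There were 6.65 ± 0.87 Th counts per Slc6a3 count at 6m and 2.61 ± 0.839 at 24m (SD, n = 4 each). This ratio was chosen after the values were seen and was not tested. The call for Slc6a3 was lost without the 3 libraries lowest in Hox genes (log2 fold change 0.56, adjusted p = 0.104), with the Hox list as a covariate (0.54) and on quantile-normalized counts (0.38).

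Slc18a2, the vesicular monoamine transporter shared by all of these neurons, rose as well. It measured 0.899, 1.36, 0.979 and 1.21 CPM at 6m, from 59 to 96 counts, and 1.11, 2.38, 2.46 and 3.21 CPM at 24m, from 115 to 280 counts. The log2 fold change was 1.04 ± 0.30 (SE, adjusted p = 0.0126 by edgeR). The libraries of 24m stood above all of 6m except replicate 1, which lay inside the range of 6m. The call was lost without the 3 libraries lowest in Hox genes (log2 fold change 1.06, adjusted p = 0.111) and with the Hox list as a covariate (0.79, adjusted p = 0.0783).

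Maob, a monoamine oxidase of the outer mitochondrial membrane that astrocytes and serotonin neurons both make, was higher at 24m by less than the fold threshold. Its level was 19.3, 21.6, 20.7 and 20.4 CPM at 6m and 27.04, 26.4, 25.7 and 30.3 CPM at 24m. Between ages the log2 fold change was 0.42 ± 0.09 (SE, adjusted p = 0.0023 by edgeR). The libraries of each age lay close together and the ages did not overlap. After removal of the trend of fold change over GC content the value was 0.17 (adjusted p = 0.13 by edgeR). Among 10 astrocyte markers 6 were called higher and 1 was called lower (median log2 fold change 0.98), beside 25.3% and 18.3% of all tested genes. Their summed level, which Aldoc dominates, was 2960 to 3900 CPM at 6m and 2930 to 3900 CPM at 24m. The part of astrocytes in the Maob result was not tested.

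Of the serotonin genes, Tph2 and Slc6a4 had the largest SE of all members, 0.57 and 0.54 on the log2 scale. Slc6a4, the serotonin transporter, was called lower at 24m. It measured 7.61, 9.17, 3.72 and 7.54 CPM at 6m and 0.743, 0.986, 1.60 and 4.78 CPM at 24m. The log2 fold change was -1.79 ± 0.54 (SE, adjusted p = 0.0161 by edgeR). The ages overlapped, because 24m replicate 4 was above 6m replicate 3, while the other 24m libraries were all below the range of 6m. Without 24m replicate 4 the log2 fold change was -2.67, and without the 3 libraries lowest in Hox genes it was -1.19 with an adjusted p of 0.234.

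Tph2, the tryptophan hydroxylase of brain serotonin neurons, did not pass the test with all libraries. Its level was 4.77, 6.31, 2.60 and 4.48 CPM at 6m and 0.714, 0.999, 2.02 and 5.53 CPM at 24m. On the log2 scale 24m differed from 6m by -0.98 ± 0.57 (SE, adjusted p = 0.158 by edgeR). Apart from 24m replicate 4, which was exceeded only by 6m replicate 2, the libraries stood in the same order as for Slc6a4. Without 24m replicate 4 the log2 fold change of Tph2 was -1.88 with an adjusted p of 0.00325, and Tph2 was then called. Without the 3 libraries lowest in Hox genes it was -0.35 (adjusted p = 0.736 by edgeR), and with the length trend removed -0.63.

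Fev, the ETS transcription factor that specifies and maintains serotonin neurons, was called lower. It measured 1.43, 1.71, 0.680 and 1.20 CPM at 6m and 0.550, 0.399, 0.612 and 0.745 CPM at 24m, from 32 to 121 counts, and its log2 fold change was -1.12 ± 0.30 (SE, adjusted p = 0.00817 by edgeR). The ages overlapped only through 6m replicate 3, which was below 24m replicate 4. In 24m replicate 4 Fev was still the highest of its age, but it was below the other 3 libraries of 6m. The call was lost after a trend of fold change over gene length was removed (log2 fold change -0.53, adjusted p = 0.17), and without the 3 libraries lowest in Hox genes (-0.77, adjusted p = 0.167).

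Within each age Tph2 and Slc6a4 varied together, and Fev followed them less closely. The deviations of Tph2 and Slc6a4 from the mean of their own age had a Pearson r of 0.99 over the 8 libraries, and Slc6a4 ranked 1 for likeness to Tph2 among 13932 genes that averaged 1 CPM or more. Fev had an r of 0.70 with Tph2 and 0.73 with Slc6a4, while Slc18a2 had an r of 0.78 with Tph2. Ddc deviated with Slc6a4 (r = 0.94), Tph2 (r = 0.92) and Fev (r = 0.78). Slc6a3 deviated with Slc18a2 (r = 0.87), but this was not particular to the pair. Of 13932 genes, Slc18a2 ranked 318 for likeness to Slc6a3, and Slc6a3 ranked 1529 for likeness to Slc18a2. Th had an r of -0.02 with Tph2 and -0.40 with Slc6a3. These values describe 8 libraries that share their preparation and depth with every gene compared.

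**Figure D2:**
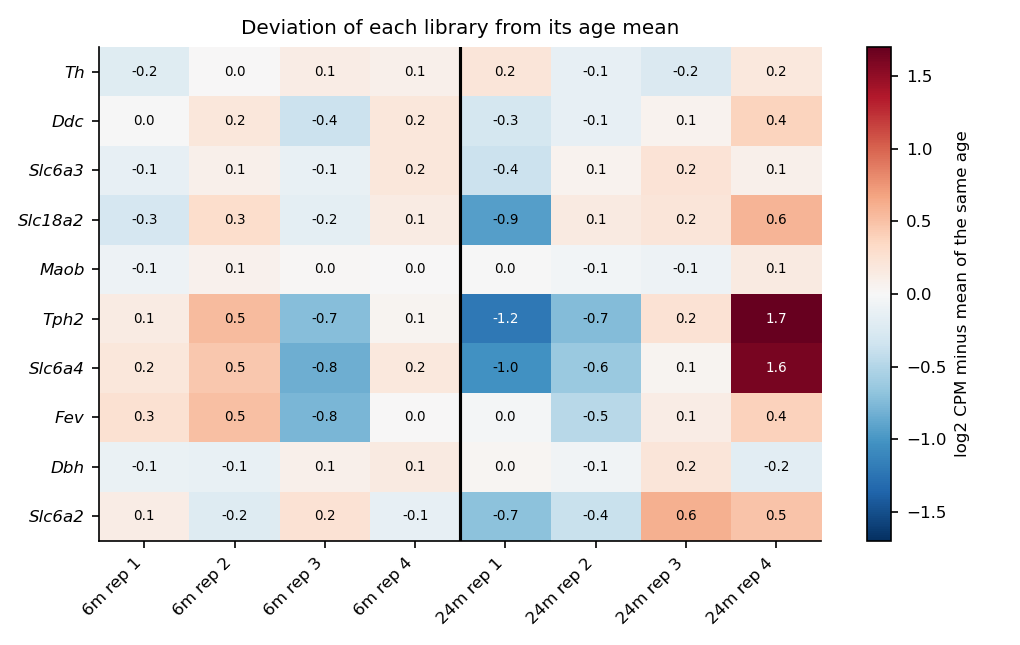
Deviation of each library from the mean of its own age, in log2 CPM, for the 10 genes (rows) and 8 libraries (columns, 6m left of the line). In 24m replicate 4 Tph2 lies 1.7 and Slc6a4 1.6 above their age mean, and in 6m replicate 3 Tph2, Slc6a4 and Fev lie 0.7 to 0.8 below theirs.

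Although Tph2 and Slc6a4 rose and fell together between libraries, their proportion differed by age. There were 1.59, 1.45, 1.43 and 1.68 Slc6a4 counts per Tph2 count at 6m and 1.04, 0.988, 0.792 and 0.865 at 24m. The means were 1.54 ± 0.121 and 0.921 ± 0.113 (SD, n = 4 each), and the ages did not overlap, even in 24m replicate 4. A ratio inside a library does not change with its scaling factor. It too was chosen after the values were seen and was not tested. Trends over gene length were not removed from it, and Slc6a4 has 5305 exonic bases and Tph2 2879. With the length trend removed in the fit, the log2 fold changes were -1.84 for Slc6a4 and -0.63 for Tph2, against -1.79 and -0.98 in the main fit.

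The other genes whose deviations were most like those of a member are given as a description over the same 8 libraries. For Tph2 they were Slc6a4, Ccdc96 (r = 0.985) and Vwa8 (0.97), and for Slc6a4 they were Ccdc96 (0.995), Tph2 and Cyb5b (0.958). Trh, a hypothalamic peptide gene, was most like Th (0.974), ahead of Slc9b2 and Nppa, and Sqle, an enzyme of cholesterol synthesis (0.969), and Magel2 (0.967) were among those most like Ddc. Adpgk, Tbc1d16 and Dnajb1 led for Slc6a3 (0.978 to 0.989), Traf3, Irs1 and Zfp27 for Slc18a2 (0.991 to 0.992) and Adcyap1, Fgf9 and Hsd17b12 for Maob (0.96 to 0.979). Txnrd3, Fibin and Ccdc80 led for Fev (0.939 to 0.946), Vav1, Inf2 and Begain for Dbh (0.978 to 0.987), and Fam184b, Mylk and Kif26a for Slc6a2 (0.957 to 0.979).

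The noradrenaline genes, which mark the locus coeruleus and other brainstem groups, differed from each other. Dbh, the vesicular enzyme that turns dopamine into noradrenaline, measured 5.43, 5.36, 6.19 and 6.49 CPM at 6m and 4.15, 3.91, 4.71 and 3.58 CPM at 24m. Its log2 fold change was -0.52 ± 0.13 (SE, adjusted p = 0.00572 by edgeR), which missed the fold threshold although no library of 24m reached the lowest of 6m. Without 24m replicate 3 the value was -0.60 and Dbh was called lower, whereas with library totals as the only scaling it was -0.30 with an adjusted p of 0.053, and without the 3 libraries lowest in Hox genes -0.64 with an adjusted p of 0.0643.

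Slc6a2, the noradrenaline transporter, was called higher from a very low level. It measured 0.259, 0.198, 0.282 and 0.212 CPM at 6m and 0.444, 0.562, 1.13 and 1.04 CPM at 24m. These levels rested on 14 to 17 counts per library at 6m and 45 to 94 counts at 24m. The log2 fold change was 1.74 ± 0.34 (SE, adjusted p = 0.00188 by edgeR), a 3.33-fold higher level, and the ages did not overlap. Of the 6 members called, Slc6a2 alone had the same call in all alternatives in which it was tested, 23 in number. The ratio of Slc6a2 to Dbh counts was 0.0407 ± 0.00713 at 6m and 0.196 ± 0.0851 at 24m (SD, n = 4 each), again chosen after the values were seen and not tested.

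**Figure D3:**
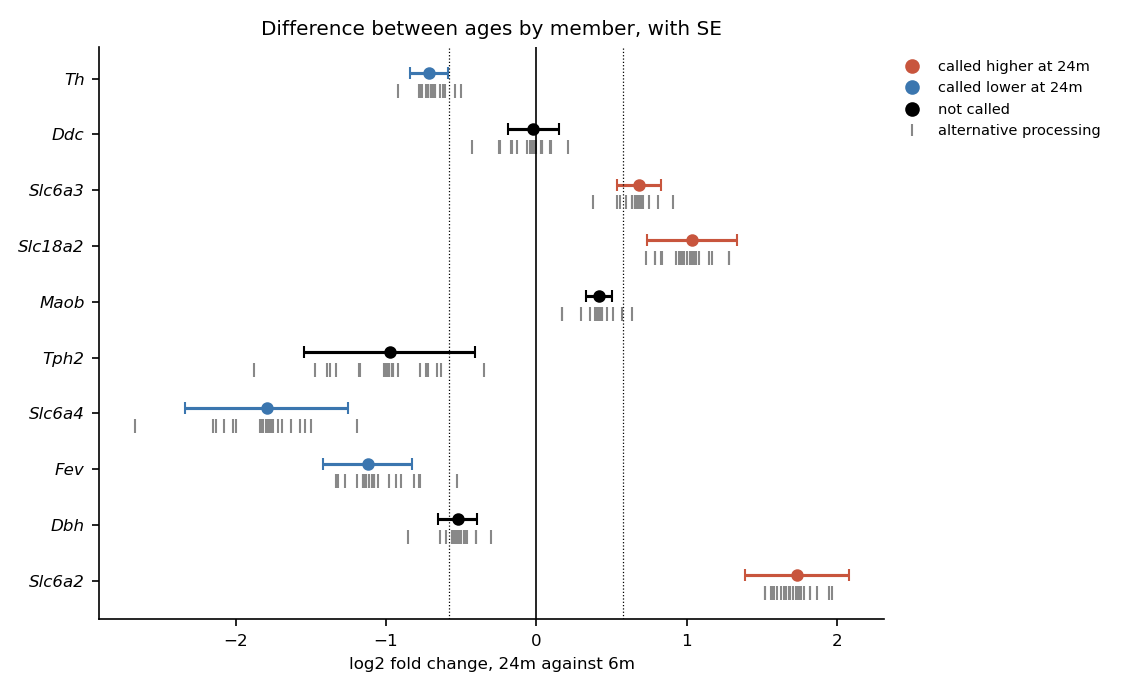
Log2 fold change of each gene, 24m against 6m, with its SE (points and bars, coloured by call) and its value under each alternative analysis (grey ticks), dotted lines marking the fold threshold of 0.58 on either side of 0. Ddc is the only gene whose ticks lie on both sides of 0, from -0.43 to 0.21.

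Compared per kilobase of exon, the order of the members' levels changed at its top between ages. At 6m Th led with 6.68 ± 0.669 CPM per kilobase, followed by Maob with 5.72 ± 0.261, and the ranges of these genes overlapped (5.76 to 7.30 and 5.38 to 6.01). At 24m Maob led with 7.63 ± 0.568 CPM per kilobase, above Th with 4.07 ± 0.621 (SD, n = 4 each), and their ranges did not overlap. At 6m Ddc came next with 2.03, and at 24m Slc6a3 (2.30) and Ddc (2.00) came next with overlapping ranges, 1.76 to 2.68 and 1.60 to 2.56. Per kilobase of the canonical transcript Ddc was above Slc6a3 at 24m, with 5.85 and 3.34 CPM per kilobase. Tph2, Slc6a3, Slc6a4 and Dbh had means of 1.19 to 1.58 at 6m with overlapping ranges. Fev, Slc18a2 and Slc6a2 were lowest at 6m with means of 0.776, 0.2 and 0.0338 CPM per kilobase.

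Overlapping genes on the opposite strand limit some of these values. Exons of Th, Ddc and Dbh each share bases with a noncoding gene there, and those of Slc18a2 with Pdzd8 and a noncoding gene. Slc6a4 and Fev also overlap a noncoding gene, but their exons share 0 bases with it. The exons of Slc18a2 and Pdzd8 share 475 bases and those of Dbh and Dbhos share 311 bases. The library kit keeps the strand, but whether the authors counted by strand is not given in the sources used here.

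Hindbrain and olfactory bulb markers differed widely between libraries, and the brainstem and the bulb both hold monoamine neurons. The summed level of 14 hindbrain Hox genes was 23.9, 4.92, 17.2 and 26.4 CPM in the libraries of 6m and 15.7, 3.395, 2.27 and 8.89 CPM in those of 24m. Of these 14 genes 3 were called lower and none higher (median log2 fold change -1.20). Over all tested genes 18.3% were called lower, so 3 of 14 was near that share. The number called lower was 12 without 24m replicate 1 and 7 without 6m replicate 2. It was 1 when replicate 1 or 4 of 6m, or replicate 2 or 3 of 24m, was left out. Leaving out 6m replicate 3 or 24m replicate 4 gave 2, and the replicate number as a block gave 10. The summed level of 4 olfactory bulb genes was 26.2, 86.8, 129.8 and 59.5 CPM at 6m and 18.7, 15.5, 15.7 and 63.5 CPM at 24m, so that 24m replicate 4 stood apart from its age. Of these 4 genes 1 was called lower (median -0.54), beside the same 18.3% of all tested genes. Without 24m replicate 4, 2 were called lower (median -1.34), and the median over the other fits that left out 1 library was between -0.82 and -0.09, the last without 6m replicate 3.

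The summed level of the 3 serotonin members was 13.8, 17.2, 7 and 13.2 CPM at 6m and 2.01, 2.38, 4.23 and 11.1 CPM at 24m. The libraries stood in a different order in this sum and in the Hox list. Replicate 2 of 6m, the third lowest in Hox genes, was the highest in serotonin genes. Replicate 1 of 24m, the highest of its age in Hox genes, was the lowest in serotonin genes. In both lists 24m replicates 2 and 3 were below every library of 6m, and the mean was lower at 24m. The part of hindbrain tissue in the serotonin levels was not tested. Within ages, the r of Tph2, Slc6a4 and Fev with the Hox list was -0.17, -0.09 and -0.12. The r furthest from 0 with this list were those of Slc6a3 (-0.57), Th (0.56) and Slc18a2 (-0.54). With the olfactory bulb list, the r of Th was 0.73 and that of Maob 0.90. With either list added to the fit as a covariate, Th, Slc6a4, Fev and Slc6a2 were called as before, and the calls for Slc6a3 and Slc18a2 were lost with the Hox list only. Without the 3 libraries lowest in Hox genes, which left 3 of 6m and 2 of 24m, 1 member was called higher (Slc6a2) and none lower.

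**Figure D4:**
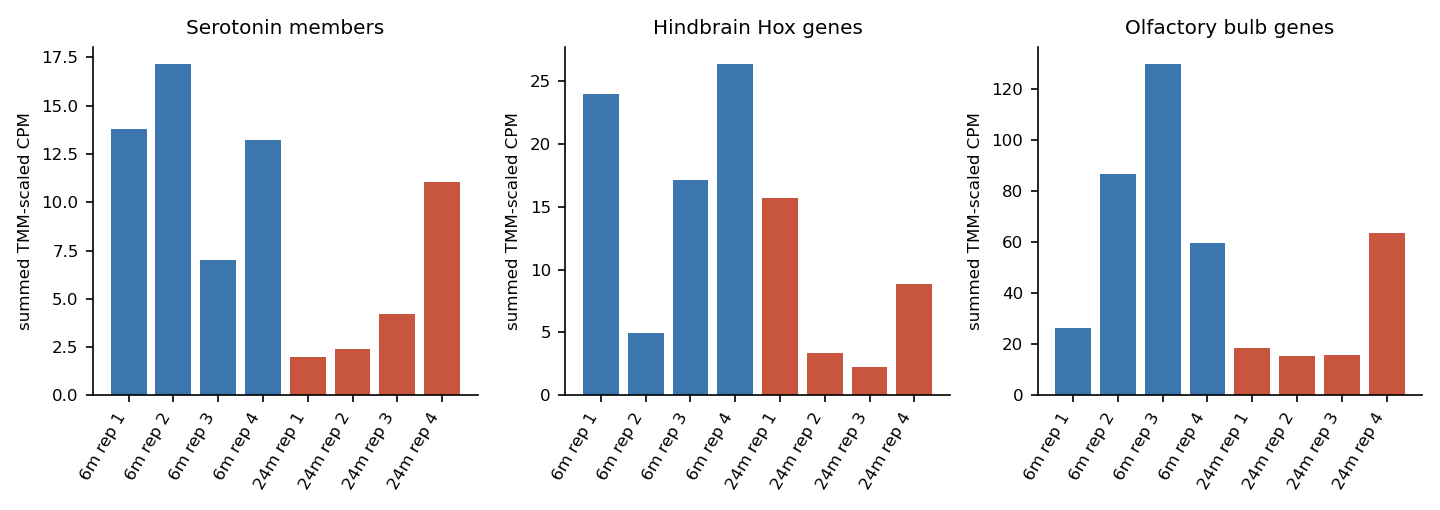
Summed TMM-scaled CPM per library of the 3 serotonin members, of 14 hindbrain Hox genes and of 4 olfactory bulb genes, with 6m in blue and 24m in red. The libraries 24m replicate 2 and 3 are low in all panels, whereas 24m replicate 1 is low in serotonin genes (2.01 CPM) and not in Hox genes (15.7 CPM).

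Other regional and cell type markers are given by their counts, beside 25.3% of all tested genes called higher and 18.3% lower. Of 6 hypothalamic genes 4 were called lower (median log2 fold change -0.92), which became 0 after the length trend was removed. Of 5 cerebellar genes 3 were called higher (0.65). Of 4 tested anterior pituitary entries 3 were called lower (-1.35), with a summed level of 2.87 to 6.12 CPM at 6m and 0.676 to 2.19 CPM at 24m, and of 2 tested pineal genes, from a gland that makes melatonin out of serotonin, none was called (-0.68, adjusted p = 0.15 and 0.369 by edgeR), at 0.348 to 0.849 and 0.195 to 0.647 CPM. Of 10 neuronal markers 2 were called higher and 1 lower (0.08), with a sum of 5540 to 5780 CPM at 6m and 5270 to 5550 CPM at 24m. Of 6 oligodendrocyte genes 1 was called higher (-0.02), of 6 microglial genes 2 were called higher (0.36), and of 7 endothelial and mural genes 3 were called higher and 2 lower (0.26). These counts shifted with single libraries. Without 24m replicate 1, 3 neuronal markers were called higher and 2 lower, and 1 pineal gene was called lower (median -1.07). Without 24m replicate 4 no neuronal marker was called lower (median -0.03), and without 6m replicate 2 the pineal median was -0.23. The microglial count was 1 when replicate 1 or 4 of 6m, or replicate 2, 3 or 4 of 24m, was left out. The cerebellar count was 2 without 24m replicate 2. Their part in the results for the members was not tested.

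Most genes of the list that supplies the hydroxylases fell. Of 7 tetrahydrobiopterin and co-chaperone genes, 6 were called lower at 24m and none higher (median log2 fold change -0.70), and for all 6 every library of 24m was below every library of 6m, where 18.3% of all tested genes were called lower and 26.8% were wholly below. They were Gch1, which commits GTP to the pathway (-0.81 ± 0.17, SE, adjusted p = 0.00244), its feedback regulator Gchfr (-1.35 ± 0.30, adjusted p = 0.00377), and the next enzymes Pts (-0.62 ± 0.09, adjusted p = 0.000419) and Spr (-0.70 ± 0.15, adjusted p = 0.0033). The recycling enzymes Pcbd1 (-0.95 ± 0.16, adjusted p = 0.000719) and Qdpr (-0.60 ± 0.11, adjusted p = 0.00115) were the others. Dnajc12, a co-chaperone of the hydroxylases, was at 25.2 ± 1.503 CPM at 6m and 23.0 ± 4.57 CPM at 24m (SD, n = 4 each) and was not called. With library totals as the only scaling, which shifts the median of all genes by 0.21, 3 of the 7 were called lower. Without the 3 libraries lowest in Hox genes 3 were called lower, and Gch1, Gchfr and Spr lost their calls. With the Hox list as a covariate Spr and Qdpr lost theirs. The call for Pcbd1 was lost when the length trend was removed (-0.21), and Qdpr missed the fold threshold without 6m replicate 4 (-0.53) and without 24m replicate 4 (-0.54). Qdpr and Spr are also made by many cells that are not monoamine neurons.

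Receptors for dopamine and noradrenaline were read against the 25.3% of all tested genes called higher. Of 5 dopamine receptors 3 were called higher (median log2 fold change 0.79), namely Drd1 (1.82 ± 0.26, SE, adjusted p = 0.000353), Drd3 (1.37 ± 0.46, adjusted p = 0.0255) and Drd5 (0.79 ± 0.17, adjusted p = 0.00313). Drd1, of striatal neurons of the direct pathway, went from 2.83 ± 0.592 to 10.04 ± 3.21 CPM (SD, n = 4 each), while Drd2, which dopamine neurons also use as an autoreceptor, was at 35.3 ± 4.18 and 36.9 ± 4.02 CPM and was not called. Of 9 adrenoceptors 3 were called higher (0.42), namely Adra1a (0.89 ± 0.23, adjusted p = 0.00825), Adra2b (0.82 ± 0.23, adjusted p = 0.012) and Adrb1 (0.71 ± 0.20, adjusted p = 0.0106). The call for Adra1a was lost with the length trend removed and on quantile-normalized counts, and its values over the alternatives reached down to 0.22. The call for Drd3 was lost without 6m replicate 1 or 3 or 24m replicate 2 or 4, with log2 fold changes of 1.04 to 1.40 and adjusted p of 0.0509 to 0.0715. Without the 3 libraries lowest in Hox genes, 1 of the dopamine receptors and none of the adrenoceptors was called. On quantile-normalized counts 2 dopamine receptors were called higher and 1 lower, with 1 adrenoceptor higher, and 5 adrenoceptors were called higher with library totals alone or with the GC trend removed.

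**Figure D5:**
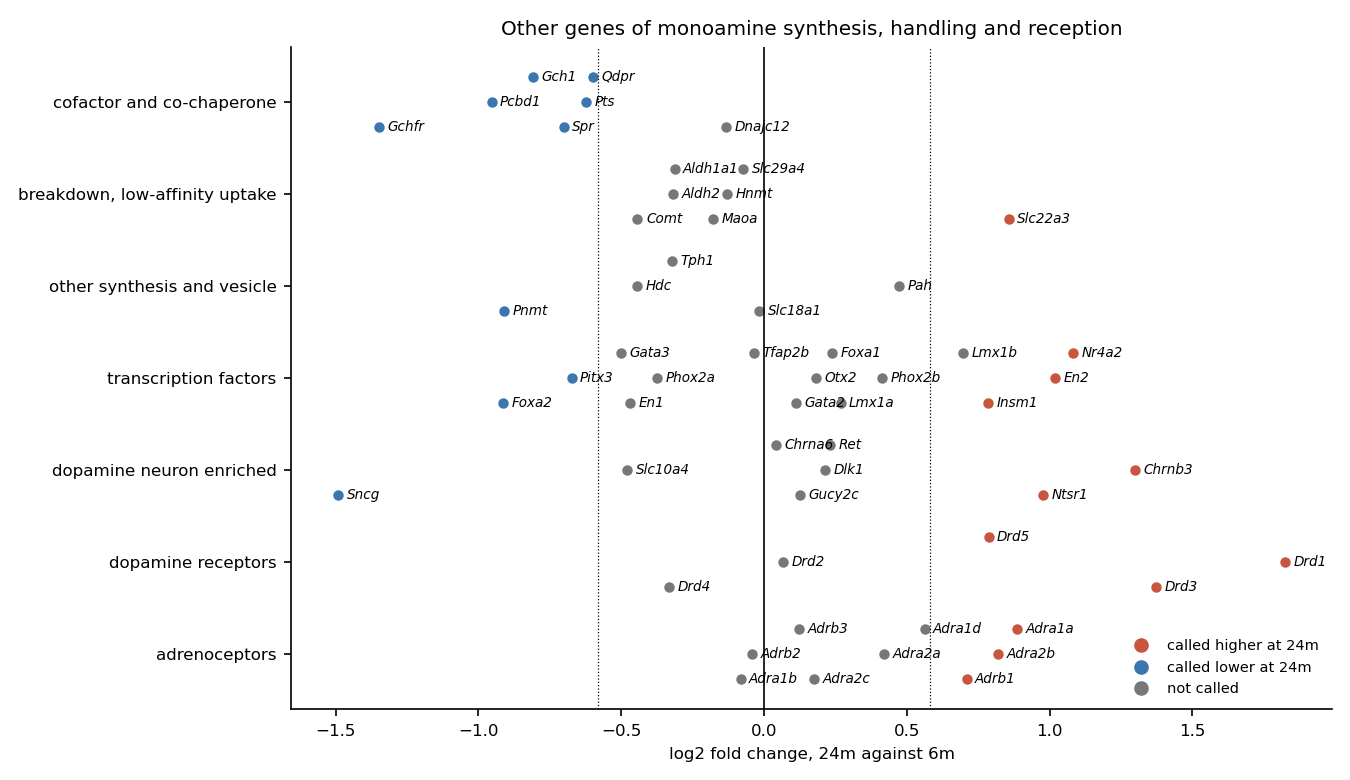
Log2 fold change, 24m against 6m, of each tested gene of 7 lists of monoamine synthesis, handling and reception, coloured by call, with dotted lines at the fold threshold of 0.58 on either side of 0. The cofactor genes lie left of 0, from -1.35 to -0.13, and the called receptors lie right of it.

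Genes of breakdown and of the neurons' specification showed no common direction. Over all tested genes 25.3% were called higher and 18.3% lower, and the counts called in these lists were near or under those shares. Of 7 breakdown and low-affinity uptake genes, 1 was called higher, the organic cation transporter Slc22a3 (0.86 ± 0.33, SE, adjusted p = 0.042), and none lower, with values of -0.44 to 0.86 and a median of -0.18 that became 0.04 with library totals as the only scaling. The call for Slc22a3 was lost without 6m replicate 1 or 4 or 24m replicate 3 or 4, with log2 fold changes of 0.65 to 0.79 and adjusted p of 0.0947 to 0.113. It was also lost on quantile-normalized counts, with the GC trend removed and in both Hox alternatives, and was kept in 15 of 24 alternatives. Of 5 other synthesis and vesicle genes, 1 was called lower, Pnmt, which makes adrenaline (-0.91 ± 0.28, adjusted p = 0.0166), and Hdc, the histamine enzyme, was at 7.55 ± 1.496 and 5.53 ± 1.44 CPM and not called. Of 15 transcription factors 3 were called higher, Nr4a2 (1.08 ± 0.30, adjusted p = 0.0105), En2 (1.02 ± 0.15, adjusted p = 0.000429) and Insm1 (0.79 ± 0.20, adjusted p = 0.00614), and 2 lower, Pitx3 (-0.67 ± 0.23, adjusted p = 0.0248) and Foxa2 (-0.91 ± 0.28, adjusted p = 0.0173). Pnmt lost its call with the length trend removed, and over the alternatives its values reached -0.27. Pnmt, Nr4a2 and Insm1 each lost their calls both without the 3 libraries lowest in Hox genes and with the Hox list as a covariate. En2 is also made by cerebellar granule cells. Pitx3 and Foxa2, which maintain midbrain dopamine neurons, were at means of 0.672 and 0.426 CPM at 6m. Pitx3 was called in 11 of 23 alternatives and Foxa2 in 19 of 23. Leaving out 6m replicate 1 or 4 or 24m replicate 2, 3 or 4 ended the call for Pitx3 (log2 fold changes -0.69 to -0.53), and leaving out 6m replicate 2 or 4 ended that for Foxa2 (-0.78 and -0.76).

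Of 8 further genes enriched in dopamine neurons, 2 were called higher, the nicotinic receptor subunit Chrnb3 (1.30 ± 0.25, SE, adjusted p = 0.00174) and the neurotensin receptor Ntsr1 (0.98 ± 0.13, adjusted p = 0.000291). The call for Chrnb3 was lost without the 3 libraries lowest in Hox genes. Of the 8, 1 was called lower, Sncg or gamma-synuclein (-1.49 ± 0.27, adjusted p = 0.00126), which went from 65.2 ± 16.2 to 23.2 ± 9.74 CPM (SD, n = 4 each). Chrna6, another nicotinic subunit of these neurons, was at 1.63 ± 0.303 and 1.68 ± 0.351 CPM. The counts of 2 of 8 higher and 1 of 8 lower did not exceed the shares over all tested genes, 25.3% and 18.3%. The median of the list was 0.17, and its genes did not share a direction. In whole-brain counts, the cells that made these RNAs were not identified.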

How the data were processed

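RNA of 8 mouse brains was sequenced as directional polyadenylated libraries. Following the methods of the study and the submitters' processing notes, the authors trimmed reads with Trim Galore 0.4.11, aligned them to GRCm39 with HISAT2 2.1.0 and counted them per Ensembl gene. The deposited table holds raw counts, with no normalization and no pooling. Genes entered the test here if 4 or more libraries had over 5 counts. Ages were compared in edgeR 4.0.16 under R 4.3.3 by its quasi-likelihood method, scaled by TMM factors and fitted with age alone, at the thresholds of the study, in place of its DESeq2 procedure. DESeq2 on quantile-normalized counts, without the row-wise median step of the authors, was run as an alternative. Log2 CPM used a prior count of 2. Positions and lengths came from GENCODE, a later annotation than that of the study, which matched 22281 genes. The fit was tested on simulated data. No pair of replicates agreed within sampling noise (chi-square per degree of freedom 8.24 to 425). Alternatives used limma 3.58.1 and DESeq2 1.42.0, other scalings and filters, thinning, trend removal and left-out libraries. The members and gene lists were chosen with earlier results of these data known. All members, every called gene of the pathway lists and the 3 genes most like each member were named by rule (1 such gene is not reported here), and other names were chosen after their values were seen.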

Additional observations from a re-analysis of the deposited data

Results flagged for a closer look

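The summed level of the 4 olfactory bulb genes in the libraries of 24m stood out, because 24m replicate 4, at 63.5 CPM, lay far above the other 3 libraries, which were at 15.5 to 18.7 CPM. The gap was 0.935 of the whole range of the group, above Dixon's critical value for 4 samples. Chance flags about 1 in 20 groups. In the same library Tph2 and Slc6a4 were the highest of their age, at 5.53 and 4.78 CPM, although their gaps did not pass the critical value. Whether the makeup of the tissue had a part in these levels was not tested.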

How the results depend on the processing

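Directions of 9 of the 10 members were the same in every alternative run. Ddc, which was not called, changed sign with library totals as the only scaling (0.21), without the 3 libraries lowest in Hox genes (0.10), with the olfactory bulb list as a covariate (0.03), and over the analyses that left out 1 library each (-0.16 to 0.09). The alternatives on the Hox and olfactory bulb lists were chosen after seeing the data. Without the 3 libraries lowest in Hox genes, 1 member was called higher, 0 were called lower and 1575 of all genes were called lower, in a fit with fewer samples. With the Hox list as a covariate, 1 member was called higher. Library totals alone gave 1746 genes lower, and Maob was then called higher (0.64), while its value with the GC trend removed was 0.17 with or without the block (adjusted p = 0.19 and 0.13 by edgeR). A fold threshold of 1 gave 2542 genes higher and 950 lower, and no fold threshold gave 4999 lower, by construction of the threshold. Leaving out 1 library gave 3 members higher each time and 3 to 4 lower. The cause of the other changes was not tested. Across genes, fold changes rose with exonic length (Spearman rho 0.42) and fell with GC content (-0.207). Samples with the same replicate number did not pair, since their deviations correlated at 0.271, 0.143, 0.078 and -0.348. With the replicate number as a block, 3 members were called higher and 3 lower, and 4112 and 3130 of all genes. With the block and the GC trend removed together, Tph2 was called lower (-1.47, adjusted p = 0.0425 by edgeR) and Fev was not (-0.78, adjusted p = 0.0861). Quantile-normalized counts tested with DESeq2 gave a call for Dbh (-0.85). Fev and Slc6a2 were not tested under a filter of 1 CPM. Counts of 14 to 17 limit the precision of Slc6a2 at 6m.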
